A study of Mus musculus with 13 samples.

Results

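Neuronatin, the product of Nnat, was followed along the retrosplenial cortex of the mouse, across dissection levels, cell clusters, animals and brain sections. Nnat is 1 of 15114 genes in the table of dissociated neurons and 1 of 32285 genes in the table of tissue spots. It was picked because its counts differed between posterior and anterior cells in an earlier reading of the same data. Its levels along that axis, and across clusters of the same cells, are therefore a description with no test. Of 765 neurons, 112 held at least 1 Nnat count, and of 1973 spots, 1032 did.

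The neurons came from wild-type B6 mice and were collected in 11 samples from 3 animals (samples 1 to 3 from animal 1, 11 to 14 from animal 2, 15 to 18 from animal 3). Retrosplenial tissue was dissected at an anterior, a medium or a posterior level, given in each cell's name, and cells were pooled across slices before collection. No treatment or transgene is named. The 2 sections, 10 µm thick and cut from frozen wild-type brains, are called S4 and S8 in the spot names. The labels do not tie them to the first or second sectioned sample, nor to a dissection level, so the spots place Nnat in tissue but not along the anterior-posterior axis.

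Neuronatin is a small proteolipid of the endoplasmic reticulum membrane, likened to phospholamban and studied for its ties to the calcium pump of that membrane and to the signal peptidase. Nnat is imprinted and is transcribed from the paternal copy. It lies within another imprinted gene, Blcap, which is read from the opposite strand. Whether counting used strand is not given in the sources used here, so reads of the overlapping part could have been given to either gene.

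The 250 bases before the Nnat start are shown because imprinted promoters are marked at CpG sites, which are in capitals here. They are taken from RefSeq (build GRCm38.p6, plus strand), chr2:157559828-157560077, 5′ to 3′.
Nnat promoter: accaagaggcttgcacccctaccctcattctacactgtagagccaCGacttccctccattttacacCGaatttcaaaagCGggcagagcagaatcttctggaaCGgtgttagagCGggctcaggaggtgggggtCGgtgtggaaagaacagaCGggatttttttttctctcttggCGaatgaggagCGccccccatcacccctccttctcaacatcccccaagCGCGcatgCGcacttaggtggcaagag
This window held 12 CpG sites (the letters CG, the same on both strands). Of 32851 RefSeq windows of the same length, 92.1% held at least 1, 33.5% held at least as many as Nnat, and the median window held 6. No methylation was measured, so the sequence stands only as context.

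Total counts per sample of neurons ranged from 2306470 to 15974543, with a median of 138331 per cell. Animal 1 was the shallowest, with median totals of 54532 to 80212 per cell in its 3 samples. Levels are given as CPM, the counts scaled to a fixed total of the summed counts. Intervals are exact 95% Poisson or binomial intervals and cover counting error only, since counts of reads need not be independent molecules.

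Cells were clustered without Nnat, and 11 clusters resulted, each called here by a marker gene. In one cluster of 74 cells 3 of the 4 listed layer 6 intratelencephalic (IT) markers met the marker rule. These were Osr1, a transcription factor, Oprk1, the kappa opioid receptor, and Car12, a carbonic anhydrase. The rule asks for a count in at least 25% of the cells and a log2 ratio of at least 1 to the mean of the other clusters. The fourth marker, Nr4a2, did not meet it. Osr1 and Oprk1 were also among the leading genes of the cluster, and Car12 was not. The cluster was picked as the one with the highest summed mean of Osr1, Oprk1 and Car12. This layer 6 IT-like cluster is called the Osr1 cluster below. The vesicular glutamate transporter gene Slc17a7 had counts in all 22 anterior, 18 medium and 34 posterior cells of the cluster. Osr1 itself averaged 45.1 ± 17.2 CPM at the anterior and 56.0 ± 28.4 CPM at the posterior level (SD, n = 3 animals). Of 8 listed interneuron genes, 4 have a row in the table of cells. Their sums in the cluster were 0 to 8.54 CPM at the anterior, 0 to 29.8 CPM at the medium and 0.381 to 5.47 CPM at the posterior level. Of these 4, Gad2, which marks inhibitory neurons, had no count in the cluster at any level.

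Nnat was concentrated in the Osr1 cluster. That cluster made up 9.67% of the cells and held 1175 of the 1559 Nnat counts (75.4%). Its 34 posterior cells alone, 4.44% of all cells, held 1028 counts (65.9%). With Nnat held out of the clustering, it still ranked first by fold among the genes of this cluster.

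Posterior cells of the Osr1 cluster had 411 CPM of Nnat in animal 1 (150 counts in 7 cells), 487 CPM in animal 2 (609 counts in 13 cells) and 102 CPM in animal 3 (269 counts in 14 cells). Anterior cells of the cluster had 12.8 CPM (6 counts in 6 cells), 7.62 CPM (9 counts in 6 cells) and 1.08 CPM (3 counts in 10 cells) in the same order of animals. Every posterior value lay above every anterior value. The lowest posterior sum, that of animal 3, was still well above the highest anterior sum, that of animal 1. The means were 333 ± 203 CPM at the posterior and 7.17 ± 5.88 CPM at the anterior level (SD, n = 3 animals).

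Within each animal the posterior to anterior ratio was 32.1 (interval 14.4 to 88.7) in animal 1, 63.9 (33.4 to 140) in animal 2 and 94.4 (32.0 to 461) in animal 3. The wide intervals come from the few anterior counts. The animal with the lowest posterior level also had the lowest anterior level, and the 3 intervals of the ratio overlapped.

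Medium-level cells lay between the extremes. The medium cells of the Osr1 cluster had 89.3 CPM in animal 1 (12 counts in 3 cells) and 40.5 CPM in animal 2 (82 counts in 13 cells). In animal 3 only 2 medium cells fell in the cluster, under the minimum of 3 for a sum, and they held 35 counts. In animals 1 and 2 the order was anterior, medium, posterior. The medium sum of animal 1 came from 1 of its 3 cells.

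**Figure D1:**
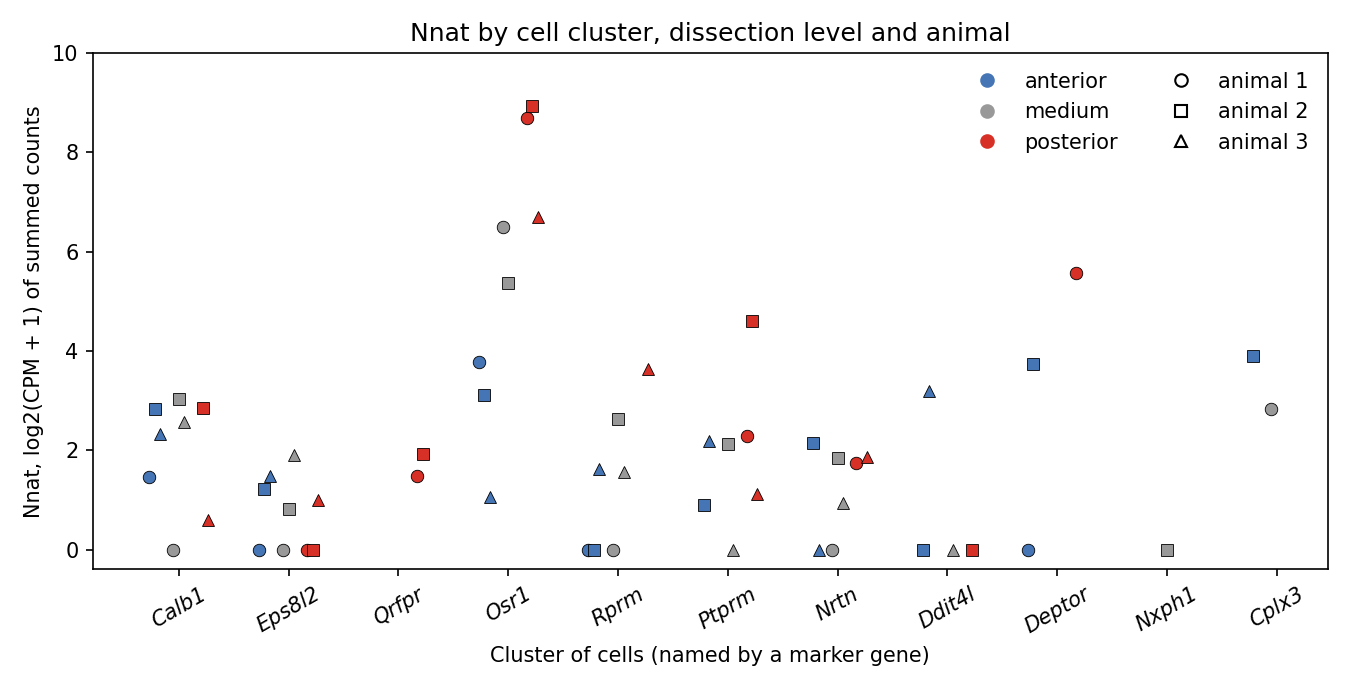
Nnat level, as log2(CPM + 1) of summed counts, in each cluster (horizontal axis) by dissection level (colour) and animal (symbol), for sums of at least 3 cells. The posterior sums of the Osr1 cluster, 102 to 487 CPM, lie above those of all the other clusters, which reach 46.7 CPM.

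Single cells of the cluster were not uniform. At the posterior level 22 of 34 cells had an Nnat count, with a median of 367 CPM and a highest value of 1603 CPM (135 counts in 1 cell), and 12 had none. Pooled over animals, the cells without a count had a median total of 146088 against 99576 in cells with a count. These medians mix animals of unlike depth. The posterior cells of the cluster had median totals of 48169, 99142 and 194174 in animals 1, 2 and 3, and animal 3 had the lowest share with a count. Cells without a count had the higher median total within animals 1 and 2 but not within animal 3. At the anterior level 6 of 22 cells had a count, none with more than 4 counts or 31.9 CPM. At the medium level 7 of 18 cells had one, with a highest value of 251 CPM. The share of cells with a count in the posterior cluster averaged 66.1% ± 14.2 over animals, against 31.1% ± 20.1 in the anterior cluster (SD, n = 3 animals). By animal, 5 of 7, 10 of 13 and 7 of 14 posterior cells had a count, against 2 of 6, 3 of 6 and 1 of 10 anterior cells. The lowest posterior share equalled the highest anterior share, while the summed levels did not overlap. All 8 cells of the data above 500 CPM were posterior cells of the Osr1 cluster, and of the 20 cells with the most Nnat counts, 16 were.

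**Figure D2:**
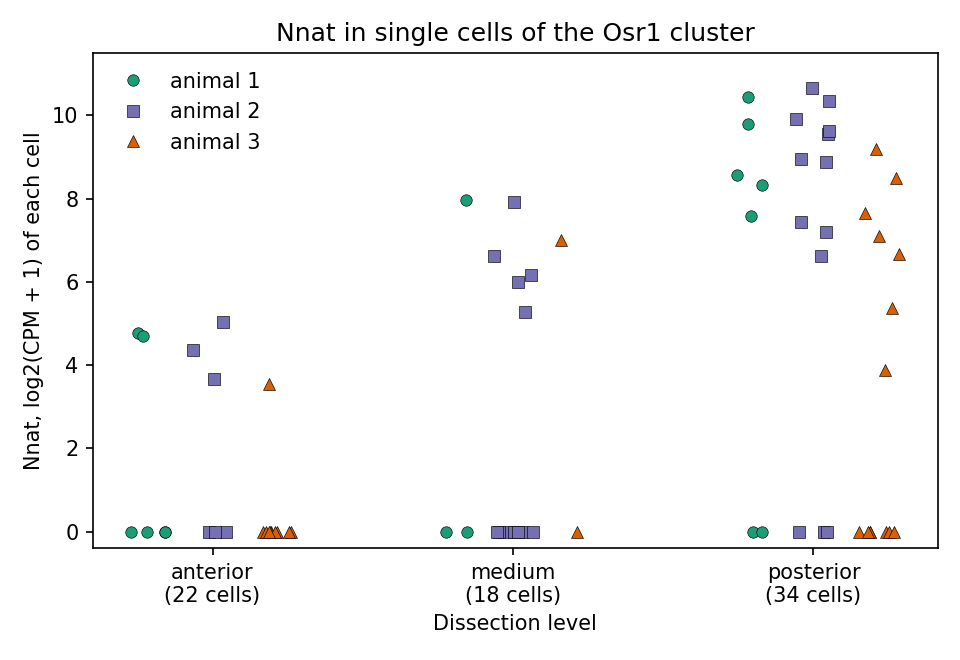
Nnat level of each cell of the Osr1 cluster, as log2(CPM + 1), by dissection level (horizontal axis) and animal (colour and symbol). Posterior cells split into 12 without a count and 22 spread up to 1603 CPM, while no anterior cell passes 31.9 CPM.

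The posterior cells came from 10 samples, which differed among themselves. In animal 1 the posterior Osr1 cells of samples 1, 2 and 3 had 462, 372 and 322 CPM. In animal 2 those of samples 12, 13 and 14 had 619, 572 and 245 CPM, and sample 11 gave none. In animal 3 sample 16 had 178 CPM (4 cells) and sample 17 had 124 CPM (5 cells). Sample 18 had 6.65 CPM (2 counts in 2 cells) and sample 15 had no count in 3 cells, for which the interval reaches 7.76 CPM. The low posterior level of animal 3 was thus shared unevenly by its samples, each with 2 to 5 such cells.

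Depth was also made equal. With each cell thinned to 50000 counts, 4 of 34 posterior, 2 of 18 medium and 1 of 22 anterior cells of the cluster were too shallow and were left out. Summed over the animals, the thinned cells had 300.0 CPM of Nnat at the posterior, 40.0 CPM at the medium and 5.71 CPM at the anterior level. A count was left in 60.0% of posterior (interval 40.6 to 77.3), 37.5% of medium and 4 of 21 anterior cells (interval 5.45% to 41.9%). The posterior and anterior intervals of the share overlapped. The unthinned shares over the same pools were 22 of 34, 7 of 18 and 6 of 22.

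Outside the Osr1 cluster Nnat was sparse. Of the other 691 cells, 77 (11.1%, interval 8.89 to 13.7) had a count, at 3.66 CPM in all, with a median total per cell of 138687 against 133215 in the Osr1 cluster. Their highest cell had 20 counts, and another reached 172 CPM. Their level was 3.61 CPM at the anterior, 2.91 CPM at the medium and 4.36 CPM at the posterior level. By animal it went from 0.636 to 4.36 CPM between the anterior and posterior level in animal 1, from 4.48 to 8.12 CPM in animal 2 and from 3.21 to 2.20 CPM in animal 3. The direction of this pooled level thus differed among animals. Over all cells Nnat went from 2.22 to 30.7 CPM in animal 1, from 4.66 to 60.3 CPM in animal 2 and from 2.95 to 15.1 CPM in animal 3. Of the posterior counts behind these values, the Osr1 cluster held 150 of 173, 609 of 692 and 269 of 308.

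The order of the clusters at the posterior level began with the Osr1 cluster. Next came the Deptor cluster, with 46.7 CPM, from 3 cells of animal 1 of which 1 had a count. It also had 14 counts in 1 of 2 cells of animal 2 and no count in 1 cell of animal 3, both too few for a sum. The layer 6 corticothalamic-like Rprm cluster had 11.4 CPM from 5 cells of animal 3, and 17 counts in 1 of 2 cells of animal 2, too few for a sum. The Ptprm cluster, with layer 5 IT markers, had 9.51 ± 12.2 CPM (SD, n = 3 animals), with 23.5 CPM in animal 2 and at most 3.89 CPM in the others.

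The superficial Calb1 cluster had 6.24 CPM in animal 2 and 0.514 CPM in animal 3. Both clusters with layer 5 extratelencephalic (ET) markers were low, at 1.79 and 2.79 CPM in the Qrfpr cluster and 2.33 and 2.64 CPM in the Nrtn cluster. The Eps8l2 cluster, with granular layer 2/3 markers, had 0, 0 and 1.01 CPM. Below the Osr1 cluster, neighbours in this order overlapped in range or rested on 1 animal, and their order is not resolved. Summed over animals, the Rprm cluster went from 0.985 CPM (27 anterior cells) to 27.4 CPM (7 posterior cells, 2 with a count). The Deptor cluster went from 8.27 CPM (17 cells) to 45.1 CPM (6 cells, 2 with a count). The Calb1 and Eps8l2 clusters went lower, from 4.33 to 2.64 CPM and from 1.37 to 0.717 CPM. A higher posterior level was thus not seen in the Osr1 cluster alone, though the Rprm and Deptor sums rest on few cells.

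The level over all cells also holds the share of Osr1 cells, which differed between levels. The cluster's share of cells was 13.3%, 5.66% and 9.52% at the anterior and 9.72%, 11.9% and 12.6% at the posterior level in animals 1, 2 and 3. The mix of the other cells also changed: the Qrfpr cluster made up 26.0% of posterior cells and had no anterior or medium cell.

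Markers of other cell types were checked in the same sums. Summed over 6 oligodendrocyte genes, the Osr1 cluster had 60.1 to 1292 CPM at the anterior and 79.5 to 137 CPM at the posterior level. Of the 6 meningeal genes, 3 have a row in the table, and they summed to at most 1843 CPM at the anterior and 2.74 CPM at the posterior level. The 6 astrocyte genes summed to 268 to 303 CPM at the anterior and 157 to 220 CPM at the posterior level. Gfap, Slc1a3 and Gja1 were at 0 at both levels. The ranges at the anterior and posterior level overlapped for the oligodendrocyte and meningeal genes. The lowest meningeal sum was 0 CPM at the anterior and 0.761 CPM at the posterior level. Every posterior astrocyte sum was below every anterior one. The part of these markers in the Nnat levels was not tested.

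Blcap, whose span contains Nnat, did not show the same pattern. In the Osr1 cluster Blcap had 61.9, 128 and 66.9 CPM at the anterior and 95.8, 92.7 and 129 CPM at the posterior level in animals 1, 2 and 3. The values overlapped between levels. In edgeR's quasi-likelihood fit of the cluster's sums (posterior against anterior, 3 animals against 3), the log2 fold change of Blcap was 0.31 ± 0.45 (SE, adjusted p = 0.999).

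That fit gives the background for all other genes. Of 8729 genes tested in the Osr1 cluster, 1 was called (0.0115%) at an adjusted p under 0.05 and a log2 fold change of at least 1. It was Nnat, for which this is the contrast that chose it, and nothing is read from that call. Unadjusted p was under 0.05 for 306 genes, and DESeq2 called 12. Without animal 1, and without animal 2, edgeR called 0, with 428 and 300 genes at an unadjusted p under 0.05. Complete separation of the 3 posterior from the 3 anterior values was more common. It held upward for 435 genes (4.98%) and downward for 483 (5.53%).

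Of 44 listed imprinted genes besides Nnat, 22 were tested in the Osr1 cluster. None was called by edgeR, the same as nearly all genes of this fit, 2 had an unadjusted p under 0.05, and DESeq2 had 0 at an adjusted p under 0.05. Their log2 fold changes ran from -0.97 to 1.38, with a median of -0.0070 against -0.0039 over all genes tested. Ndn (necdin, a MAGE family protein) had 318, 607 and 477 CPM at the anterior and 624, 1022 and 774 CPM at the posterior level (log2 fold change 0.79 ± 0.27, adjusted p = 0.999 in edgeR). Peg3, a paternally expressed zinc finger gene, had 98.2, 124 and 216 CPM at the anterior and 73.9, 81.5 and 69.3 CPM at the posterior level (log2 fold change -0.97 ± 0.42, adjusted p = 0.999). For both genes the groups did not overlap, in opposite directions, and 2 of the 22 genes separated in each direction. Over all genes tested, 4.98% separated upward and 5.53% downward.

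Genes of endoplasmic reticulum calcium handling and of protein entry into it were counted because of neuronatin's place in that membrane. Of 24 calcium genes, 15 were tested, edgeR called 0 and DESeq2 had 0 at an adjusted p under 0.05. An unadjusted p under 0.05 was seen for 2, and the median of the 15 log2 fold change was 0.08. Atp2a2, which encodes the calcium pump SERCA2, had 438, 340 and 364 CPM at the anterior and 408, 247 and 282 CPM at the posterior level (log2 fold change -0.29 ± 0.26, adjusted p = 0.999). The ryanodine receptor gene Ryr1 had 0, 0 and 0.723 CPM at the anterior and 27.4, 21.6 and 10.7 CPM at the posterior level (adjusted p = 0.999 in edgeR). Of the 15, Ryr1 and Ryr2 separated the levels upward and Ryr3 downward, against 4.98% and 5.53% of all genes tested. Of 19 translocon and signal peptidase genes, 17 were tested, edgeR called 0, 1 had an unadjusted p under 0.05 and DESeq2 had 0 at an adjusted p under 0.05. Pln and Sln, the small pump inhibitors of muscle, were not analysed in cells.

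Over all cells, pooled by animal and level, edgeR called 1 of 13373 genes (0.00748%) and DESeq2 called 82. With animal as a block, edgeR called 4. The called gene was Ptgds, a prostaglandin synthase abundant in meninges, which fell from 249 ± 195 to 1.82 ± 0.892 CPM (SD, n = 3 animals, adjusted p = 0.0044, or 0.086 without animal 2). In the same fit 27 imprinted genes, 16 calcium genes and 18 translocon and signal peptidase genes were tested and edgeR called 0 of them. Unadjusted p was under 0.05 for 4, 3 and 0 genes of these lists, and DESeq2 had 0 in each at an adjusted p under 0.05. Of 14 areal patterning genes tested, edgeR called 0, 4 had an unadjusted p under 0.05 and DESeq2 had 1 at an adjusted p under 0.05. That 1 was Crym, a thyroid hormone binding protein and a leading gene of the Qrfpr cluster. It had 71.2, 124 and 70.7 CPM at the anterior and 447, 474 and 203 CPM at the posterior level (adjusted p = 0.137 in edgeR).

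The genes most alike to Nnat across cells were found over 48 sums of an animal, a cluster and a level, each of at least 5 cells, among 8151 genes. Likeness was Pearson's r of log2(CPM + 1), given as a description, since the sums share animals, libraries and depth. The highest were Rgs12 (0.66), a regulator of G protein signalling, Cryab (0.66), the small heat shock protein alpha B-crystallin, and Col6a1 (0.65), a collagen chain. The tenth, Erc2, had 0.57. All 10 had, at each of the 3 levels, a mean in the Osr1 cluster above the median of the sums of the other clusters.

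Only some of these genes also followed the level within the Osr1 cluster. Cryab had 239, 216 and 235 CPM at the anterior and 537, 629 and 519 CPM at the posterior level, with no overlap (log2 fold change 1.30 ± 0.23, adjusted p = 0.272 in edgeR). Col6a1 had 38.4, 9.31 and 24.6 CPM at the anterior and 98.5, 218 and 52.9 CPM at the posterior level, again with no overlap (adjusted p = 0.999). Rgs12 went the other way in its means, with 70.2 ± 35.0 CPM at the anterior and 31.5 ± 14.2 CPM at the posterior level (SD, n = 3 animals), and its values overlapped. None of the 10 was called.

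A second measure asked which genes varied with Nnat among the 34 posterior cells of the Osr1 cluster. Over 6465 genes the median size of r was 0.129. The highest r belonged to Itm2c (0.67), a transmembrane protein of neurons, followed by the mitochondrial chaperone Trap1 (0.60), Abhd14a (0.59) and the cadherin Cdh13 (0.59). Within single animals Itm2c had r of 0.95, 0.77 and -0.01 in animals 1, 2 and 3, so it did not hold in animal 3. Cdh13 had 0.85, 0.57 and 0.69. Cdh13 was also higher in posterior than in anterior cells of the cluster without overlap (230 ± 29.2 against 112 ± 42.2 CPM, adjusted p = 0.999 in edgeR). Cells differ in animal and depth, and with 34 cells these values are descriptions only.

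In the sections Nnat was more widely spread. It had 1939 counts in section S4 (1022 spots, 230 CPM) and 1526 counts in section S8 (951 spots, 239 CPM), and 52.3% of spots in each had a count. A spot covers several cells or parts of cells, so more cells with Nnat and more Nnat per cell cannot be told apart. Spots were grouped into 10 regions with Nnat left out, after each gene was centred within its section, and 9 regions were filled in both sections. In all, 162 barcodes occur in both sections, as positions on the slide do.

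The highest region was led by Trh, the thyrotropin-releasing hormone precursor, Dlk1, an imprinted Notch-like protein, and Calb2, the calcium-binding protein calretinin. These Trh spots had 1018 CPM of Nnat in S4 (interval 953 to 1087, 117 spots) and 854 CPM in S8 (795 to 916, 140 spots). They were 11.4% and 14.7% of the spots and held 46.5% and 51.1% of the Nnat counts. Nnat was 7.41 and 6.27 times as high there as in the remaining spots of S4 and S8. A count was present in 96.6% and 92.9% of them. Their depth was slightly lower than elsewhere, with median totals of 7497 and 6441.5 counts against 8367 and 6756. The grouping itself moved the Nnat level in some runs, where the region with the highest summed log level of Trh, Dlk1 and Calb2 was taken. With spots of at least 500 genes and another clustering seed, that region had 516 CPM on average in place of 936 CPM. Without centring it had 287 CPM, from 137 CPM in S4 and 436 CPM in S8. That S4 value was no higher than the 137 CPM of the S4 spots outside the Trh spots.

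The second region was led by Cyp26b1, a retinoic acid degrading enzyme, with Kcng1, Sst, Tmem91, Ccn2 and Nr4a2 next. It had 460 CPM in S4 (interval 420 to 503) and 313 CPM in S8 (278 to 351). The 8 listed interneuron genes summed to 1445 CPM there in S4, the highest of the regions of that section, and to 1299 CPM in S8. The third, led by Ptgds and Myoc at the meningeal border, had 241 and 307 CPM, and the 6 meningeal genes summed to 3207 and 3052 CPM there. The region led by hemoglobin genes had 126 and 245 CPM. A region found only in S4, led by Penk, had 189 CPM.

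The other 5 regions were low. The Ighm region, with the layer 6 corticothalamic markers Foxp2, Syt6 and Rprm among its leading genes, had 80.1 and 109 CPM. The Tshz2 region had 62.8 and 78.6 CPM and the Myl4 region 41.3 and 54.2 CPM. The Rasgrf2 and Cux2 region had 29.9 and 38.7 CPM and the Rspo1 and Rorb region 32.4 and 29.2 CPM. The Trh spots were the highest and the Cyp26b1 spots the next in both sections, with no overlap between them. The Cyp26b1 region in S8 and the Ptgds region in S8 differed by less than their intervals. The last 2 regions did not differ beyond their intervals in either section.

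Markers of the Osr1 cluster were near the limit of detection in spots. Osr1 had no count in the Trh spots of either section and 3 and 2 counts in the Cyp26b1 spots. Oprk1 had 4 and 4 counts in the Trh spots and 15 and 6 in the Cyp26b1 spots. Car12 had 31 and 38 counts in the Trh spots and 9 and 5 in the Cyp26b1 spots. Nr4a2, absent from the leading genes of the Osr1 cluster, was a leading gene of the Cyp26b1 spots. These values do not tie the Osr1 cluster of cells to 1 region of spots.

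Genes that followed Nnat over spots were ranked by the lower of their r in the 2 sections, over log(1 + counts per 10000), among 9704 genes with a median of -0.02. Spots of a section share a library, and the r values are descriptions. The first were Nr2f2 (0.42 in S4 and 0.40 in S8), which encodes the nuclear receptor COUP-TFII, Calb2 (0.41 and 0.36), Cpne7 (0.40 and 0.35), a copine that binds membranes with calcium, and Hpcal1 (0.38 and 0.35), a neuronal calcium sensor. After them came Ccn3, Hap1 (huntingtin-associated protein), Dlk1, Dcn (the proteoglycan decorin), Timp2 (a metalloproteinase inhibitor) and Ly6h. For all 10 the Trh spots, whose leading genes include Nr2f2, Calb2, Dlk1 and Dcn, were the region with the highest level.

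The size of the difference varied among them. Dlk1 had 101 CPM in the Trh spots of S4 against 3.58 CPM elsewhere, and 43.8 against 6.03 CPM in S8. Calb2 had 203 against 15.4 CPM in S4 and 148 against 18.99 CPM in S8. Nr2f2 had 183 against 34.8 CPM and 189 against 30.7 CPM. Timp2, at 365 against 183 CPM and 343 against 187 CPM, and Ly6h, at 663 against 342 CPM and 543 against 264 CPM, were less marked.

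**Figure D3:**
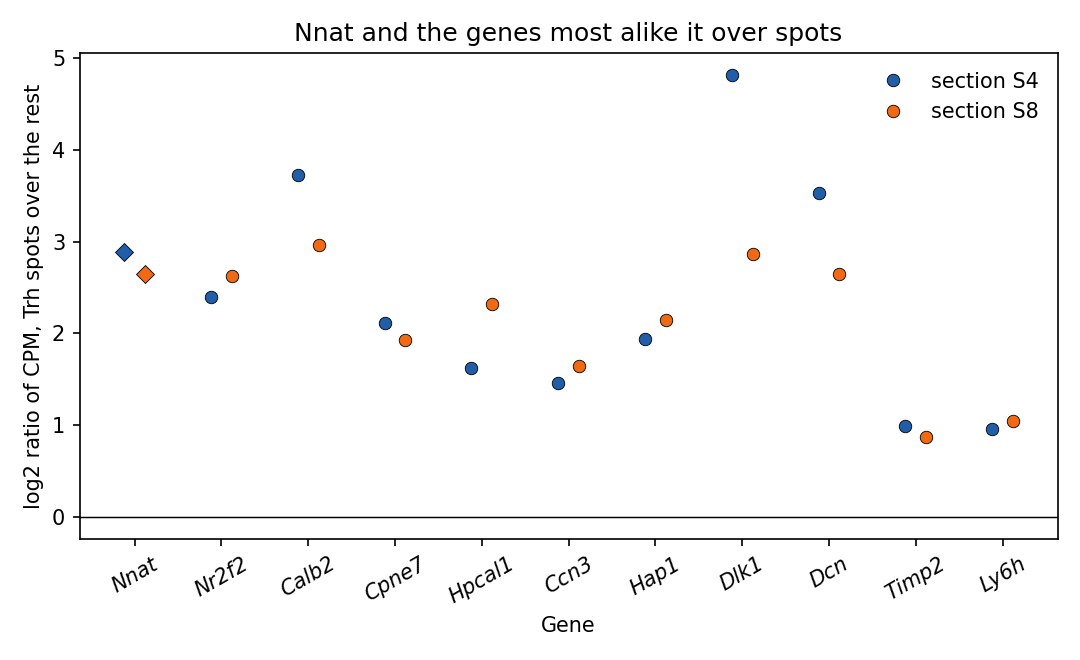
The log2 ratio of the CPM in the Trh spots to that in all other spots, for Nnat (diamonds) and the 10 genes most alike it over spots (circles), in sections S4 and S8. Dlk1, Calb2 and Dcn reach or pass the ratio of Nnat in both sections, and Timp2 and Ly6h stay near 1.

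Within the Trh spots the genes parted. Calb2 still went with Nnat, with r of 0.47 over 117 spots of S4 and 0.42 over 140 spots of S8. Dlk1 had 0.32 and 0.24, and Timp2 had 0.25 and 0.34. Nr2f2 had 0.11 and 0.07 and Hpcal1 -0.03 and -0.16, so their likeness to Nnat was one of regions and not of spots within this region. Over the spots outside it, r for the 10 genes ran from 0.12 to 0.37 in S4 and from 0.10 to 0.26 in S8.

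The genes Cpne7 and Ly6h were among the 10 most alike both over spots and among posterior cells of the Osr1 cluster, 2 of 10 in each list. Of the 10 genes from spots, 5 have a row in the table of cells. In posterior Osr1 cells Cpne7 had r of 0.56 (11 of 34 cells with a count), and 0.54, 0.50 and 0.61 within animals 1, 2 and 3. Ly6h had 0.54, and 0.92, 0.29 and 0.33 within the animals. The other 3, Hpcal1, Hap1 and Timp2, had -0.19, -0.17 and 0.13. Cpne7 averaged 14.9 ± 9.14 CPM at the anterior and 24.5 ± 17.1 CPM at the posterior level of the cluster, and Ly6h 85.0 ± 25.3 and 133 ± 35.2 CPM (SD, n = 3 animals, both adjusted p = 0.999 in edgeR). Both overlapped between levels, unlike Nnat.

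The lists give the setting of Nnat in the Trh spots. Of 10864 other genes with more than 3 counts on both sides in each section, 216 (1.99%) were at least 2-fold higher there in both sections and 172 (1.58%) at least 2-fold lower. The spots were grouped by these genes, so the counts are descriptions. Of 33 imprinted genes measured, 2 were at least 2-fold higher in both sections, Dlk1 and Dio3, which lie in the same imprinted cluster. Dio3, a thyroid hormone inactivating deiodinase, had 20.3 against 1.85 CPM in S4 and 17.5 against 2.01 CPM in S8. The median log2 ratio of the imprinted genes was 0.10 in S4 and 0.30 in S8, against 0.01 and 0.0047 over all genes. Blcap had 127 against 65.0 CPM in S4 and 125 against 71.6 CPM in S8, a ratio of 1.95 and 1.74.

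Genes listed for the hippocampal formation were the most often higher of the lists. Of 12 measured, 6 were at least 2-fold higher in the Trh spots of both sections, namely Gpr101, Dcn, Nos1, Fibcd1, Calb2 and Spink8. Of 15 areal patterning genes, 3 were: Nr2f2, Bhlhe22 and Crym. Gpr101, Dcn, Calb2 and Nr2f2 are among the leading genes of the Trh spots, as is Dlk1 of the imprinted list. Leading genes were ranked by their fold in these spots, so their being higher there is no separate finding. All 6 oligodendrocyte genes were at least 2-fold lower there in both sections. Of the other lists, 1 of 18 calcium genes (Atp2a3) and 1 of 4 meningeal genes (Dcn) were higher by that measure, and 2 calcium genes (Itpr1 and Atp2b2) were at least 2-fold lower in both sections. The count in either direction was 0 of 19 translocon and signal peptidase genes, 0 of 7 interneuron genes, 0 of 6 astrocyte genes, 0 of 5 microglia genes and 0 of 5 vascular genes.

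Of the 13 hippocampal genes listed, 3 were tested in the Osr1 cluster, with a median log2 fold change of -1.20, and edgeR called 0. Spink8 and Man1a separated the levels in opposite directions, as 4.98% of all genes tested did upward and 5.53% downward. Spink8, a protease inhibitor gene, had no count in the anterior Osr1 cells of any animal and 30.1, 30.4 and 17.9 CPM in the posterior Osr1 cells of animals 1, 2 and 3 (96 counts in all). Its adjusted p was 0.819 in edgeR and 0.0197 in DESeq2, so the call rested on the tool. Man1a, which encodes a Golgi mannosidase, had 19.2, 29.6 and 32.5 CPM at the anterior and 0, 0.799 and 1.14 CPM at the posterior level (4 posterior counts in all, adjusted p = 0.999 in edgeR and 0.179 in DESeq2).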

How the data were processed

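Neurons of 11 samples from 3 animals and spots of 2 sections were used. The deposited tables hold raw counts per gene and cell or spot, whole numbers that the authors did not normalize. The submitters' processing notes name Seurat, Space Ranger and the builds NCBIM37 and mm10, and the aligner and counting strand are not given in the sources used here. Doublets were not called, and no cell or spot was removed.

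Nnat was left out of the clustering (scanpy 1.11.5): counts scaled to 10000, log, 2000 variable genes, 30 components, 15 neighbours, resolution 1, seed 1. Spots were centred within their section first. Counts were summed per animal, cluster and level (at least 3 cells) and tested with edgeR 4.0.16 (filterByExpr, TMM, quasi-likelihood, Benjamini-Hochberg), called at an adjusted p under 0.05 and a log2 fold change of at least 1. DESeq2 1.42.0 was an alternative. Anterior and posterior sums come from the same 3 animals and are paired by animal. The main fits left this pairing out, with level as the only term, and animal entered as a block in an alternative. Same-animal deviations correlated at 0.03, 0.03 and 0.07 in the Osr1 cluster and at 0.23, 0.02 and 0.14 over all cells. The fits were tested on simulated counts.

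The gene, the lists and the tests were chosen with earlier results of these data known. Named were Nnat, Blcap, Pln, Sln and Atp2a2, the 10 genes most alike by each measure (mean of at least 10 CPM over sums, a count in at least 5% of spots, or in at least 25% of the posterior cells), up to 5 list genes called, and the 5 largest called genes in each direction. Ndn, Peg3, Ryr1, Ryr2, Ryr3, Crym, Spink8, Man1a, Dio3 and the list genes named for their spots were chosen after their values were seen. Alternatives were other scalings, filters, resolutions and left-out animals or sections. Values are CPM of summed counts, and p-values measure the spread between 3 animals.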

Additional observations from a re-analysis of the deposited data

Results flagged for a closer look

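One result met the rules for a closer look. In the Osr1 cluster Nnat was higher at the posterior than at the anterior level in 3 of 3 animals, whereas in the Eps8l2 cluster it was lower in both animals with any count, by -1.05 CPM on average (posterior minus anterior). In that cluster animal 2 had 1.33 CPM at the anterior level (8 counts) and no count at the posterior level, where the exact 95% Poisson interval of 3 cells reaches 10.2 CPM. Animal 3 had 1.78 CPM (5 counts) and 1.01 CPM (4 counts), and animal 1 had no count at either level. The difference between the clusters was not tested, and the Eps8l2 values are at the limit of detection. In 8 groups of 4 samples no sample stood apart from the others.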

How the results depend on the processing

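The posterior Nnat level of the Osr1 cluster stayed within its SD over animals under all of its alternatives. That SD was 203 CPM beside a mean of 333 CPM, so the limit is a loose one. The level was 256 to 449 CPM with an animal left out and 360 CPM as a mean over cells. It was 255 CPM after thinning and 339 CPM with DESeq2 size factors. Resolutions 0.5 and 1.5, Nnat among the clustered genes and, added after seeing the data, genes scaled to unit variance left it at 333 CPM. The anterior level was 4.35 to 10.2 CPM with an animal left out. The genes called between levels in the Osr1 cluster numbered 1, against 12 in DESeq2, 10 with no filter, 0 after thinning and 0 to 1 with an animal left out. With animal as a replicate block the count was 1. Over all cells the count was 1, against 82 in DESeq2, 4 with the replicate block and 0 to 1 with an animal left out. The cause of these changes was not tested, and leaving out cells or animals leaves fewer counts. Of the 10 genes most alike to Nnat over sums, 5 to 8 were still among the first 10 under the alternatives. In spots, without centring the regions followed the sections. A single region chosen over both sections, with 77 and 18 spots, then had 287 CPM of Nnat in place of 936 CPM (137 CPM in S4 and 436 CPM in S8). A region chosen in each section, an alternative added after that value was seen, had 693 CPM. Clustering seeds 2 to 5, also added, gave 825 to 936 CPM with all spots. With spots of at least 500 genes they gave 939 to 959 CPM, but 516 CPM with seed 5. The anterior level of the Osr1 cluster is limited by its few Nnat counts, 18 in all, and the medium level by its 18 cells. The anterior cells were not shallow, with a median total of 198674 counts per cell against 105270 in posterior cells.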
